A study of Mus musculus with 6 samples.

Results

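The genes described here are 10 markers and survival genes of Ly6C-low, or non-classical, monocytes. They are the transcription factor genes *Nr4a1*, *Pou2f2* and *Pparg*, the surface protein genes *Cx3cr1*, *Spn*, *Treml4*, *Cd300e* and *Adgre4*, and the enzyme genes *Ace* and *Eno3*. They were taken by gene symbol, with no threshold on their values, and all 10 were found among the 24346 gene symbols measured in each mouse. Mouse monocytes are commonly divided into classical cells with high Ly6C, which enter inflamed tissue, and non-classical cells with low Ly6C, which patrol the inner wall of blood vessels. Non-classical monocytes arise from classical ones, depend on the nuclear receptor NR4A1, and carry high levels of the fractalkine receptor CX3CR1. In bone, cells of the monocyte lineage give rise to osteoclasts, and CX3CR1 marks many of the precursors.

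RNA-Seq had been performed on EGFP+ cells, labelled as osteoclast precursors, sorted from calvarial bone marrow of CX3CR1-EGFP knock-in mice. All 6 mice carried the knock-in and were injected at the periosteum of the skull with lipopolysaccharide (LPS) at 20 mg/kg, a model of inflammatory bone destruction. For 5 days from the LPS injection, 3 mice had ABT-317, an inhibitor of JAK1, by mouth (JAKi-treated mice). It was given 2 times per day, at a dose of 60 mg/kg each time. The other 3 mice were given vehicle over the same days (vehicle-treated mice). In this knock-in, EGFP is expressed from the *Cx3cr1* promoter, and EGFP is the only sort gate that the methods name. The libraries can thus hold any cells with an active *Cx3cr1* locus and not non-classical monocytes alone. The age of these mice, their genetic background and the number of knock-in alleles they carried are not given in the sources used here, and cells of mice without LPS were not analysed here. Expression was measured as FPKM, a unit in which fragments are divided by the length of the transcript and the size of the library, which allows levels of different genes to be compared within a library. Whether the deposited values had been normalized further is not stated. The FPKM summed to between 688372 and 775790 per library, and the depth in reads is unknown.

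All 10 genes were expressed in every mouse, and for all 10 the mean was higher in JAKi-treated than in vehicle-treated mice. The groups were compared on log2(FPKM + 1) with limma across the 11301 genes that reached 1 FPKM in 1 or more mice, and all 10 genes were among them. Of the 10, 8 were higher with JAKi at an unadjusted p under 0.05, against 6.57% of all tested genes and 7.23% of the tested genes whose mean reached 5 FPKM, and 0 were lower, against 9.4% of all tested genes. In 6 of the 10, every JAKi-treated mouse lay above every vehicle-treated mouse, against 9.92% of all tested genes. The median difference of the 10 genes, JAKi minus vehicle, was 0.89 on the log2 scale, and that of all tested genes was -0.0035. Without vehicle-treated mouse 3 the median of the 10 genes was 0.53. Without the filter on low values, *Ace*, *Nr4a1*, *Eno3* and *Cd300e* lost their calls. None of the 10 passed an adjusted p under 0.05 in limma, a threshold that 15 of all tested genes (0.133%) passed. That count of 15 was 94 without vehicle-treated mouse 3, 95 without vehicle-treated mouse 2, and 5, 6 and 3 without JAKi-treated mice 1, 2 and 3. In bulk samples such as these, fewer non-classical monocytes among the sorted cells of vehicle-treated mice and less RNA of these genes per cell in those mice cannot be told apart.

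**Figure D1:**
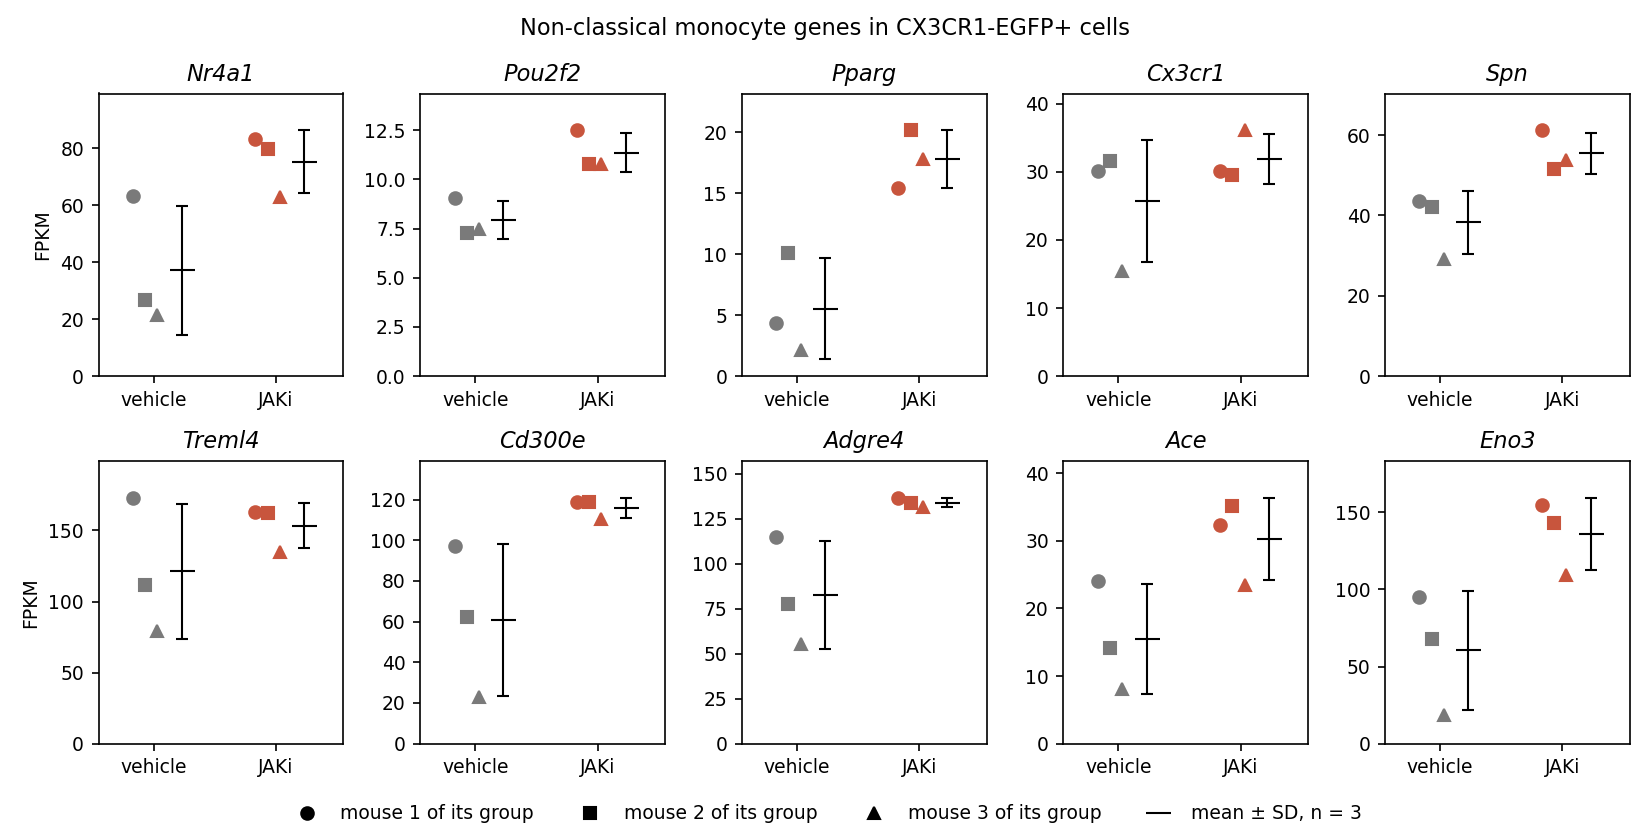
FPKM of the 10 non-classical monocyte genes in each of the 3 vehicle-treated (grey) and 3 JAKi-treated (red) mice, with 1 symbol per mouse and the mean ± SD of each group (n = 3). The JAKi-treated mice lie close together in most panels, whereas the vehicle-treated mice spread widely, and mouse 3 of the vehicle group is the lowest of the 6 mice in 9 panels.

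*Nr4a1* (chromosome 15, 101254269 to 101274795, plus strand) encodes the orphan nuclear receptor on which Ly6C-low monocytes depend, and it is also known as an immediate early gene. The 250 bases before its RefSeq start (GRCm38.p6, chr15:101266596-101266845, plus strand), which lie in an intron of a longer GENCODE transcript, are shown because they hold 4 matches to TGACG, the half-site of the cAMP response element. The matches are in capitals and read CGTCA on the printed strand.
Nr4a1: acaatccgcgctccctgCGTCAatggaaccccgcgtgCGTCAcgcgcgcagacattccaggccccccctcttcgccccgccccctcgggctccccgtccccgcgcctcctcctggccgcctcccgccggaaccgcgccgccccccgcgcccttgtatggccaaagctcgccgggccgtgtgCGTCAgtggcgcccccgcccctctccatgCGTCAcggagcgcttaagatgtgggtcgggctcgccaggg
The matches began 233, 213, 69 and 40 bases before the start. On either strand, TGACG was found in 17.8% of the 32851 RefSeq windows of this length, and 45 windows (0.137%) held at least 4 matches. The *Nr4a1* window was chosen for display after its matches had been counted, and a match describes letters and not a bound site. *Nr4a1* had an FPKM of 63.2, 26.7 and 21.6 in vehicle-treated mice 1 to 3 and of 83.3, 79.8 and 62.7 in JAKi-treated mice 1 to 3. The groups met only where vehicle-treated mouse 1 lay just above JAKi-treated mouse 3. The difference in *Nr4a1* was 1.14 on the log2 scale (standard error 0.33; limma, unadjusted p = 0.00730, adjusted p = 0.159). Without vehicle-treated mouse 1, the highest of its group, the *Nr4a1* difference was 1.596 and its adjusted p in limma was 0.0165, the lowest of 14 alternatives, over which it ranged up to 0.639.

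Immediate early genes as a list did not share the direction of *Nr4a1*. Of 10 tested genes of this list, which does not include *Nr4a1*, 5 were lower and 1 was higher with JAKi at an unadjusted p under 0.05, and the median difference was -0.47 on the log2 scale, -0.76 without vehicle-treated mouse 2 and -0.30 without vehicle-treated mouse 3. *Dusp1*, a phosphatase of MAP kinases, had an FPKM of 91.1, 105 and 181 in vehicle-treated mice and of 41.6, 40.6 and 46.0 in JAKi-treated mice, a difference of -1.47 with no overlap (limma, adjusted p = 0.0557). *Fos*, a subunit of the AP-1 transcription factor, differed by -1.07 and *Egr1*, a zinc finger transcription factor, by -1.48, each with no overlap. *Jun*, another AP-1 subunit, differed by -0.90 with no overlap, whereas *Ier2*, the most abundant gene of the list, had overlapping groups and differed by -0.07. The other lower gene, *Junb* (-0.42, and -0.24 without vehicle-treated mouse 3), lost its call without JAKi-treated mouse 1 (-0.41) or 3 (-0.38). *Atf3*, a transcription factor of stress responses, was the gene that was higher, by 1.03 on the log2 scale with no overlap. The paralogs of *Nr4a1* were barely expressed, with *Nr4a2* between 0.497 and 1.26 FPKM and *Nr4a3* listed at 0 in 5 of the 6 mice. Of 6 genes with a known link to *Nr4a1* control, *Klf2* (0.58 on the log2 scale) and *Klf4* (0.53) were higher and *Cebpb* (-0.40) was lower at an unadjusted p under 0.05. Each of these 3 calls was lost when 1 of certain mice was left out: *Klf2* differed by 0.44 without vehicle-treated mouse 2 and by 0.46 without JAKi-treated mouse 1, *Klf4* by 0.34, 0.42 and 0.55 without vehicle-treated mouse 2 and JAKi-treated mice 1 and 2, and *Cebpb* by -0.36 without vehicle-treated mouse 1. *Cebpb* also differed by -0.24 without JAKi-treated mouse 2, where its call was kept.

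*Pparg* (chromosome 6, 115360951 to 115490399, plus strand) encodes a lipid-sensing nuclear receptor and had the lowest mean FPKM of the 10 genes in vehicle-treated mice, though not the lowest value in each mouse. Its FPKM was 4.35, 10.1 and 2.14 in vehicle-treated mice and 15.4, 20.1 and 17.8 in JAKi-treated mice. Every JAKi-treated mouse lay above every vehicle-treated mouse, and vehicle-treated mouse 2 was well above the other 2 of its group. The *Pparg* difference of 1.71 on the log2 scale (standard error 0.38; limma, unadjusted p = 0.00157, adjusted p = 0.109) was the largest of the 10 genes. Without vehicle-treated mouse 2 it was 2.19 with an adjusted p in limma of 0.0149, the lowest of 14 alternatives, over which it ranged up to 0.496. Among 10 genes known as targets of PPARG, 9 were tested, 2 were higher and 1 was lower at an unadjusted p under 0.05, and the median difference was 0.0018, or between -0.03 and 0.10 with 1 mouse left out (without vehicle-treated mouse 1 and JAKi-treated mouse 1). *Fabp4*, which encodes a fatty acid carrier, had an FPKM of 17.6, 6.16 and 3.67 in vehicle-treated mice and of 36.9, 28.2 and 38.6 in JAKi-treated mice. All 3 JAKi-treated mice had more *Fabp4* than any vehicle-treated mouse, a difference of 2.05 on the log2 scale (limma, adjusted p = 0.109). The scavenger receptor gene *Cd36* differed by 0.84 with overlapping groups, and its unadjusted call was lost without JAKi-treated mouse 3, at 0.67. *Nr1h3*, which encodes the oxysterol receptor LXR alpha, was lower, by -0.99 with no overlap. *Plin2*, the lipid droplet gene with the highest mean of the target list, differed by -0.12, and *Pdk4* was listed at 0 in every mouse. *Pparg* is also a gene of fat cells, and the fat cell genes *Adipoq*, *Plin1*, *Cidec* and *Lep* were listed at 0 in all 6 mice, while the other 2 genes of that list, *Retn* and *Cfd*, reached at most 1.34 FPKM and summed to 0.203, 0.279 and 1.44 in vehicle-treated mice and 0, 0 and 1.20 in JAKi-treated mice, with 0 of 2 tested past an unadjusted p of 0.05.

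*Pou2f2* (chromosome 7, 25087344 to 25179726, minus strand) encodes the octamer-binding factor OCT2, known best from B cells. *Pou2f2* had an FPKM of 9.07, 7.30 and 7.47 in vehicle-treated mice and of 12.5, 10.8 and 10.8 in JAKi-treated mice. The groups did not overlap, and the spread within each was small. The difference of 0.47 on the log2 scale (standard error 0.14; limma, unadjusted p = 0.00875, adjusted p = 0.169) corresponds to 1.38-fold in FPKM + 1. The B cell genes *Ms4a1*, *Pax5* and *Ebf1* were listed at 0 in all 6 mice, and *Cd79b*, the B cell list's most abundant gene, had 26.7 to 35.4 FPKM. The 7 of 8 B cell genes with a listed value summed to 28.4, 32.6 and 28.3 FPKM in vehicle-treated mice and 33.1, 31.0 and 35.7 in JAKi-treated mice, and 0 of its 2 tested genes passed an unadjusted p under 0.05 with all 6 mice, against 1 that was higher without JAKi-treated mouse 3.

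*Cx3cr1* (chromosome 9, 119901616 to 120069879, minus strand), whose promoter drives the sorting reporter, had an FPKM of 30.1, 31.5 and 15.5 in vehicle-treated mice and of 30.1, 29.5 and 36.1 in JAKi-treated mice. Of the 6 values, 5 lay close together and vehicle-treated mouse 3 stood below them, so that the vehicle-treated mice spanned 2.04-fold and the JAKi-treated mice 1.22-fold. The *Cx3cr1* difference was 0.36 on the log2 scale with a 95% interval of -0.18 to 0.90 (limma, unadjusted p = 0.170, adjusted p = 0.512). Without vehicle-treated mouse 3 it was 0.04, with an interval of -0.23 to 0.31. Since the sort selected for activity of this locus, the level of *Cx3cr1* in the sorted cells is not independent of the gate. The number of knock-in alleles, which is not given, also bears on that level and on the place of *Cx3cr1* among the 10 genes.

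*Spn* (chromosome 7, 127132232 to 127137823, minus strand) encodes CD43, a sialoglycoprotein used to tell Ly6C-low from Ly6C-high monocytes. *Spn* had an FPKM of 43.5, 42.1 and 29.2 in vehicle-treated mice and of 61.2, 51.5 and 53.8 in JAKi-treated mice. The groups did not overlap, and the lowest JAKi-treated mouse lay above the highest vehicle-treated mouse by more than the SD of the JAKi group (5.06). The difference in *Spn* was 0.54 on the log2 scale (standard error 0.16; limma, unadjusted p = 0.00704, adjusted p = 0.158).

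*Treml4* (chromosome 17, 48264295 to 48275360, plus strand), which encodes a TREM-like receptor of myeloid cells, had the highest level of the 10 genes in both groups. Its FPKM was 173, 111 and 79.1 in vehicle-treated mice and 163, 162 and 135 in JAKi-treated mice. Vehicle-treated mouse 1 had the highest *Treml4* of all 6 mice, so the groups overlapped. The difference of 0.40 on the log2 scale had a 95% interval of -0.13 to 0.94 (limma, unadjusted p = 0.123, adjusted p = 0.447). Without vehicle-treated mouse 1 the *Treml4* difference was 0.70 with an unadjusted limma p of 0.00254, and without vehicle-treated mouse 3 it was 0.14. In the TREM family, *Trem1*, an amplifier of inflammatory signals, was lower with JAKi by -0.61 on the log2 scale with no overlap. Of the 5 tested genes of that family, 2 were lower and 0 were higher at an unadjusted p under 0.05. The other lower gene, *Treml2* (-0.33), lost its call whichever mouse was left out, with values from -0.38 to -0.27. *Trem3*, which had the highest mean of the family list, had overlapping groups.

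*Cd300e* (chromosome 11, 115051917 to 115062177, minus strand) encodes an activating receptor of the CD300 family. Its promoter is shown because it was the only one among the 13 RefSeq windows of the 10 genes with a match to TTCNNNGAA, the palindromic element bound by STAT factors, which JAK kinases activate. Of the 250 bases before the RefSeq start (GRCm38.p6), the 112 that lie before the GENCODE start (chr11:115062178-115062289, minus strand) are printed, with the match in capitals.
Cd300e: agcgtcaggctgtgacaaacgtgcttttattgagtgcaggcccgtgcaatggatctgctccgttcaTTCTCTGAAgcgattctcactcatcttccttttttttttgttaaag
The match, TTCTCTGAA, began 184 bases before the RefSeq start and 46 bases before the GENCODE start. TTCNNNGAA, which reads the same on both strands, was found in 7.02% of the 32851 windows. The *Cd300e* window also held TGACG once. Matches to AAAGGTCA, the element of NR4A monomers (1.34% of windows), and to the octamer ATGCAAAT (1.601%), on either strand, were found in 0 windows of the 10 genes.

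*Cd300e* had an FPKM of 97.3, 62.5 and 22.7 in vehicle-treated mice and of 119, 119 and 110.3 in JAKi-treated mice. The JAKi-treated mice were nearly alike, with a highest value 1.08 times the lowest, whereas the vehicle-treated mice spanned 4.28-fold. All JAKi-treated mice lay above all vehicle-treated mice, and the difference was 1.14 on the log2 scale (standard error 0.41; limma, unadjusted p = 0.0223, adjusted p = 0.228). The *Cd300e* call was lost without JAKi-treated mouse 1 (1.13) and without JAKi-treated mouse 2 (1.13), and without vehicle-treated mouse 3 the difference was 0.57. Of the 7 tested genes of the CD300 family, 5 including *Cd300e* were higher and 1 was lower with JAKi at an unadjusted p under 0.05, with a median difference of 0.96 on the log2 scale and of 0.52 without vehicle-treated mouse 3. Without the filter on low values, *Cd300e*, *Cd300ld*, *Cd300lg* and *Cd300a* lost their calls in limma, which left 1 of the 7 higher. *Cd300ld* had an FPKM of 84.8, 72.6 and 29.2 in vehicle-treated mice and of 113, 110.2 and 116 in JAKi-treated mice, the same low vehicle-treated mouse 3 as *Cd300e*. It differed by 0.99, and by 0.52 without that mouse. *Cd300lb* (0.96) and *Cd300lg* (1.005) were likewise higher in every JAKi-treated than in every vehicle-treated mouse, and their differences were 0.61 and 0.62 without vehicle-treated mouse 3. *Cd300a* was higher by 0.49 with no overlap, and by 0.29 without that mouse. *Cd300lf*, an inhibitory member of the family, went the other way, with 57.8, 40.0 and 87.1 in vehicle-treated mice and 33.0, 27.4 and 23.7 in JAKi-treated mice. The *Cd300lf* groups did not overlap, with a difference of -1.05, and vehicle-treated mouse 3 was the highest.

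*Adgre4* (chromosome 17, 55749984 to 55853662, plus strand) encodes an adhesion G protein-coupled receptor of myeloid cells. Its FPKM was 115, 77.5 and 55.6 in vehicle-treated mice and 137, 134 and 132 in JAKi-treated mice. The JAKi-treated mice differed from each other by 1.04-fold, the least of the 10 genes, and all lay above the vehicle-treated mice, which differed by 2.07-fold. The *Adgre4* difference was 0.75 on the log2 scale (standard error 0.22; limma, unadjusted p = 0.00691, adjusted p = 0.157), and 0.50 without vehicle-treated mouse 3. The related *Adgre1*, which encodes the macrophage antigen F4/80, had 91.9, 74.9 and 63.2 in vehicle-treated mice and 65.1, 69.0 and 77.9 in JAKi-treated mice, with overlapping groups. The third gene of the family list, *Adgre5*, which encodes CD97, differed by 0.37 with no overlap. Its unadjusted call was lost without vehicle-treated mouse 3 (0.21) and without JAKi-treated mice 1 (0.37) and 2 (0.32).

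*Ace* (chromosome 11, 105967945 to 105989964, plus strand) encodes angiotensin-converting enzyme, a surface peptidase. *Ace* had an FPKM of 24.1, 14.2 and 8.07 in vehicle-treated mice and of 32.3, 35.1 and 23.5 in JAKi-treated mice. Vehicle-treated mouse 1 lay just above JAKi-treated mouse 3, and otherwise the JAKi-treated mice were higher. The difference was 1.03 on the log2 scale (standard error 0.32; limma, unadjusted p = 0.0111, adjusted p = 0.184), and 0.66 without vehicle-treated mouse 3. *Ace* is also an enzyme of blood vessel walls, and 7 of the 8 endothelial genes examined were below an FPKM of 1 in every mouse. The exception was *Egfl7*, at 6.49 to 9.80 FPKM. The endothelial list summed to 10.3, 9.42 and 6.94 FPKM in vehicle-treated mice and to 10.3, 7.50 and 7.75 in JAKi-treated mice.

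*Eno3* (chromosome 11, 70657202 to 70662513, plus strand) encodes beta-enolase, a glycolytic enzyme best known from skeletal muscle. *Eno3* had an FPKM of 94.999, 67.7 and 18.8 in vehicle-treated mice and of 155, 143 and 109.6 in JAKi-treated mice. The groups did not overlap, and vehicle-treated mouse 3 was more than 3 times below the other vehicle-treated mice. The difference was 1.42 on the log2 scale (standard error 0.48; limma, unadjusted p = 0.0167, adjusted p = 0.209), and 0.74 without vehicle-treated mouse 3. The *Eno3* call was lost without JAKi-treated mouse 1 (1.32) and without JAKi-treated mouse 2 (1.37). *Eno1*, the enolase with the highest level, was lower with JAKi, at 1521, 1509 and 1789 FPKM in vehicle-treated mice and 1282, 1274 and 1333 in JAKi-treated mice. The *Eno1* groups did not overlap, and the difference was -0.31 on the log2 scale (limma, adjusted p = 0.175). Of the 3 tested enolase genes, *Eno3* was the only one that was higher, *Eno1* was lower and the other 1 passed in neither direction. Muscle genes were low, with 5 of 8 below an FPKM of 1 in every mouse, *Myh2* listed at 0 throughout, and *Mylpf*, the most abundant, at 3.45 to 5.36 FPKM. The muscle list summed to 5.55, 6.10 and 7.50 FPKM in vehicle-treated mice and to 5.95, 5.07 and 4.68 in JAKi-treated mice, and 1 of its 3 tested genes, *Tnnt3*, was lower by -0.78.

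**Figure D2:**
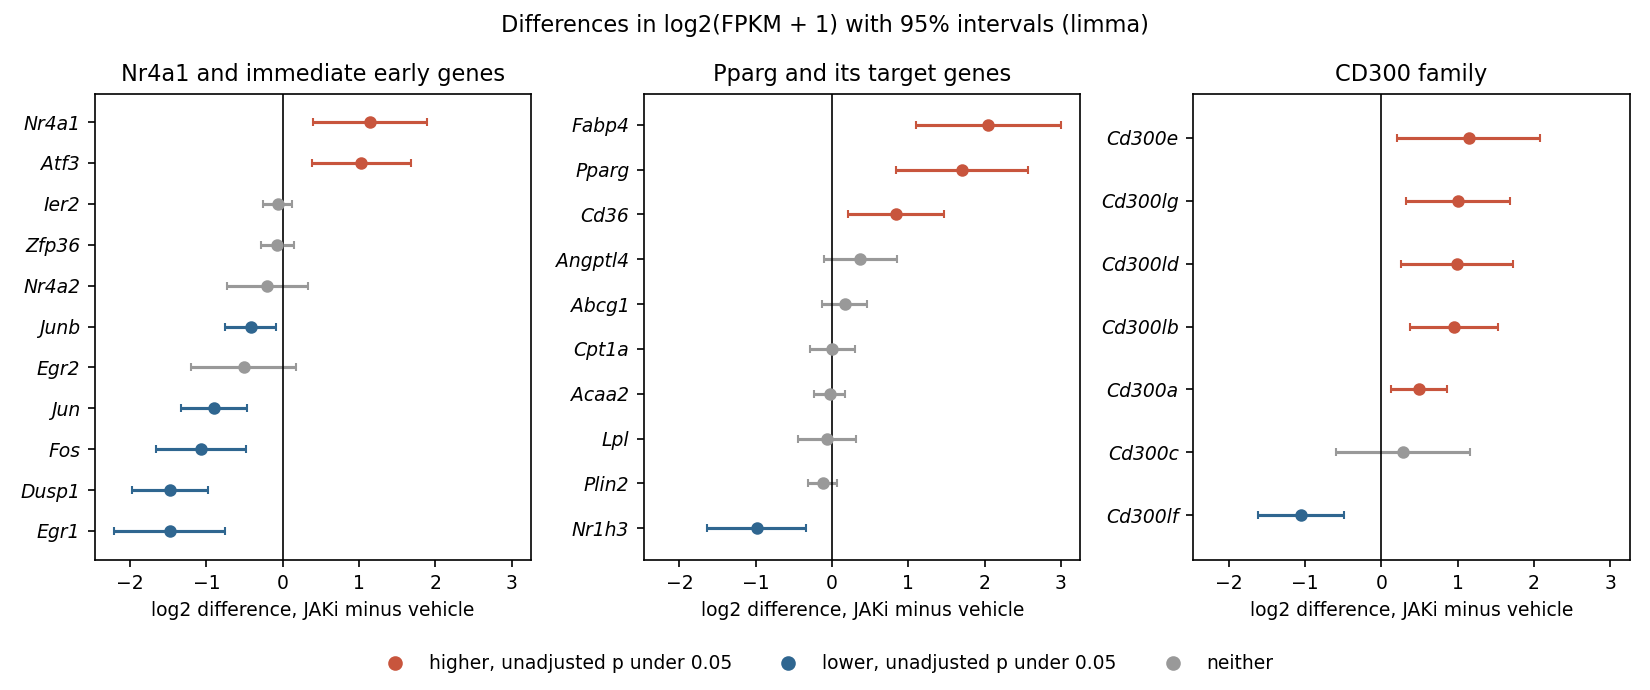
Differences in log2(FPKM + 1), JAKi minus vehicle, with 95% intervals from limma, for *Nr4a1* and the tested immediate early genes, *Pparg* and the tested PPARG target genes, and the tested CD300 family. Red points are higher and blue points lower at an unadjusted p under 0.05, and the plot shows *Nr4a1* and *Pparg* near the top of lists whose medians were -0.47 and 0.0018 with all 6 mice, whereas 5 of the 7 CD300 genes are red, a count that was 1 without the filter on low values.

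The exact 2-sided permutation test gave p = 0.1 for *Spn*, *Pou2f2*, *Eno3*, *Cd300e*, *Adgre4* and *Pparg*, the smallest that 3 mice against 3 allow. It gave an exact p of 0.2 for *Ace* and *Nr4a1*, 0.4 for *Treml4* and 0.6 for *Cx3cr1*. By mean FPKM, the order of levels in vehicle-treated mice was *Treml4*, *Adgre4*, *Cd300e*, *Eno3*, *Spn*, *Nr4a1*, *Cx3cr1*, *Ace*, *Pou2f2* and *Pparg*, from 121 to 5.54. Across mice, the values of every neighbouring pair in that order overlapped. Within each vehicle-treated mouse, however, *Treml4* was above *Adgre4*, *Adgre4* above *Cd300e*, *Cx3cr1* above *Ace* and *Ace* above *Pou2f2*. The other neighbouring pairs changed order between vehicle-treated mice. In JAKi-treated mice the order was *Treml4*, *Eno3*, *Adgre4*, *Cd300e*, *Nr4a1*, *Spn*, *Cx3cr1*, *Ace*, *Pparg* and *Pou2f2*, from 153 to 11.4. There, only the pairs *Treml4* and *Eno3*, *Eno3* and *Adgre4*, and *Cx3cr1* and *Ace* overlapped across mice. Of these pairs, *Treml4* was above *Eno3* within each JAKi-treated mouse, and the others changed order between mice.

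Vehicle-treated mice varied more than JAKi-treated mice. For all 10 genes the SD of log2(FPKM + 1) was larger in the vehicle group, as it was for 58.6% of all tested genes. *Eno3* differed 5.06-fold between the highest and the lowest vehicle-treated mouse and 1.41-fold between JAKi-treated mice, and *Pparg* 4.74-fold and 1.31-fold. Vehicle-treated mouse 3 was the lowest of all 6 mice for 9 of the 10 genes, *Pou2f2* being the exception, and for 24.8% of all tested genes. Summed over the 10 genes, the FPKM was 655, 451 and 260.3 in vehicle-treated mice and 808, 785 and 691 in JAKi-treated mice, so the sums did not overlap and vehicle-treated mouse 3 was well below the rest. *Csf1r*, the receptor gene shared by monocytes and macrophages, did not follow this order, with 412, 357 and 417 in vehicle-treated mice and 355, 422 and 382 in JAKi-treated mice. Per unit of *Csf1r* FPKM, the sum of the 10 genes was 1.59, 1.26 and 0.624 in vehicle-treated mice and 2.28, 1.86 and 1.81 in JAKi-treated mice.

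Vehicle-treated mouse 3 also stood apart in genes of mature osteoclasts. It was the highest of the 6 mice for 8 of 9 tested genes of the osteoclast list, against 2864 of all 11301 tested genes. It was also the highest for 8 of the 10 tested immediate early genes. Of the 9 osteoclast genes, 6 were lower and 1 was higher with JAKi at an unadjusted p under 0.05. The higher gene was the integrin gene *Itgb3* (0.90 on the log2 scale). *Acp5*, the gene of tartrate-resistant acid phosphatase and the most abundant of the list, had an FPKM of 194, 121 and 383 in vehicle-treated mice and of 103, 92.5 and 90.7 in JAKi-treated mice, a difference of -1.12 and of -0.68 without vehicle-treated mouse 3. *Ctsk*, the gene of the bone-degrading protease cathepsin K, had 55.4, 37.5 and 168 in vehicle-treated mice and 7.55, 13.004 and 18.5 in JAKi-treated mice, a difference of -2.43 with no overlap. The fusion genes *Dcstamp* (-1.19) and *Ocstamp* (-1.73) and the proton pump gene *Atp6v0d2* (-1.75) were also lower with no overlap. The sixth lower gene, *Mmp9* (-1.32), had overlapping groups, was -0.66 without vehicle-treated mouse 3, and kept its call in only 1 of the 6 fits with 1 mouse left out, so that 5 genes were lower in the other fits. The osteoclast list summed to 317, 207 and 687 FPKM in vehicle-treated mice and to 156, 155 and 159 in JAKi-treated mice, and the calcitonin receptor gene *Calcr* was listed at 0 throughout. Whether the number of maturing osteoclasts in a library had a part in the values of the non-classical monocyte genes was not tested.

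Without vehicle-treated mouse 3, 8 of the 10 non-classical genes were higher at an unadjusted p under 0.05, against 5.39% of all genes then tested, and their median difference was 0.53. *Pparg* had the largest difference of the 10 in that fit, at 1.27 (95% interval 0.67 to 1.88), and *Nr4a1* differed by 0.84 (0.20 to 1.49).

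**Figure D3:**
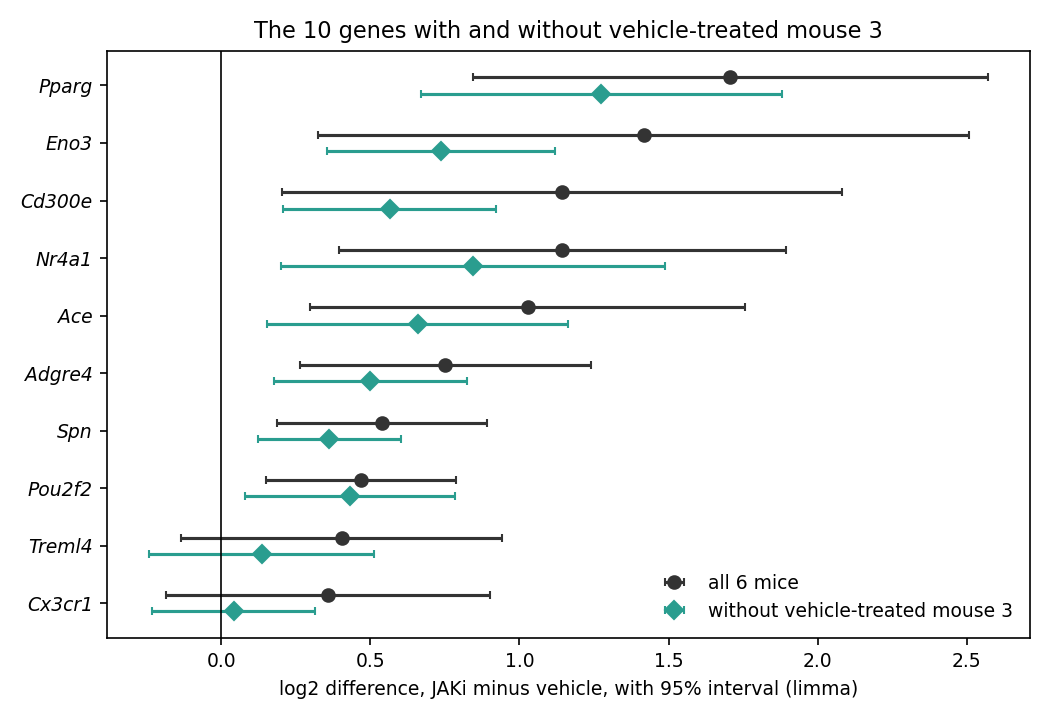
Differences of the 10 genes in log2(FPKM + 1), JAKi minus vehicle, with 95% intervals from limma, with all 6 mice (black circles) and without vehicle-treated mouse 3 (green diamonds). All 10 estimates lie nearer to 0 without that mouse, and the intervals of *Treml4* and *Cx3cr1* include 0 in both fits.

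A list of 15 other genes known from non-classical monocytes summed to 2560.3, 1905 and 1953 FPKM in vehicle-treated mice and to 2634, 2274 and 2465 in JAKi-treated mice. Of these 15, all were tested, 7 were higher, 1 was lower and 7 passed in neither direction at an unadjusted p under 0.05, with a median difference of 0.55 on the log2 scale and of 0.27 without vehicle-treated mouse 3, where 2 were lower. Without the filter on low values, 3 of the 15 were higher. *Itgal*, the alpha chain of the integrin LFA-1, had an FPKM of 59.98, 55.3 and 36.2 in vehicle-treated mice and of 79.5, 91.8 and 83.3 in JAKi-treated mice. All *Itgal* values with JAKi lay above those with vehicle, a difference of 0.77 (limma, unadjusted p = 0.00175, adjusted p = 0.113). *S1pr5*, the sphingosine-1-phosphate receptor known for the exit of Ly6C-low monocytes from bone marrow, had 18.0, 12.7 and 3.52 in vehicle-treated mice and 23.7, 28.8 and 26.0 in JAKi-treated mice. The *S1pr5* groups did not overlap, and the difference was 1.36 (limma, adjusted p = 0.191) and 0.75 without vehicle-treated mouse 3. *Ceacam1* (0.65, and 0.43 without that mouse) and *Ear2* (0.68) were also higher with no overlap. *Gngt2* (0.55), which had the highest mean of the list, had overlapping groups, and its call was lost without vehicle-treated mouse 2 (0.46) and without JAKi-treated mouse 1 (0.43). *Fcgr4*, the Fc receptor commonly used to mark these cells, had 219.7, 121 and 169.6 in vehicle-treated mice and 143, 133 and 179 in JAKi-treated mice, with overlapping groups and a difference of -0.13 (95% interval -0.59 to 0.32) that was -0.36 without vehicle-treated mouse 2, -0.26 without JAKi-treated mouse 3 and 0.07 without vehicle-treated mouse 1. *Cebpb*, which encodes a transcription factor needed for the survival of these cells, was the gene of the list that was lower.

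Genes of classical monocytes did not share a direction. Of 12 tested, 1 was higher, 4 were lower and 7 passed in neither direction at an unadjusted p under 0.05, with a median difference of 0.04 on the log2 scale. This median became -0.03, with 5 genes lower, when vehicle-treated mouse 3 was left out, -0.02 when mouse 1 of that group was, and 0.10, with 2 genes higher, when mouse 2 was. *Ly6c2*, which encodes the Ly6C antigen that separates both monocyte classes, had an FPKM of 4463, 4617 and 2751 in vehicle-treated mice and of 4475, 4076 and 4494 in JAKi-treated mice. Its groups overlapped and vehicle-treated mouse 3 was the lowest, as it was for 9 of the 10 non-classical genes, with a difference of 0.18 (95% interval -0.24 to 0.59) that was -0.06 without that mouse and 0.31 without vehicle-treated mouse 2. *Ccr2*, the chemokine receptor of classical monocytes, had 156, 198 and 194 in vehicle-treated mice and 200.1, 165 and 187 in JAKi-treated mice, a difference of 0.01 (-0.25 to 0.28), with values from -0.10 (without vehicle-treated mouse 1) to 0.09 (without JAKi-treated mouse 2) when 1 mouse was left out. *Chil3*, which encodes a chitinase-like protein and had the highest mean of the list, though *Ly6c2* was above it in each JAKi-treated mouse, had 10281, 8838 and 10575 FPKM in vehicle-treated mice and 4044, 2945 and 4440 in JAKi-treated mice. *Chil3* was lower by -1.39 on the log2 scale with no overlap (limma, adjusted p = 0.0189). It was the only gene of the lists with an adjusted p under 0.05, and that call was lost in 4 of 14 alternatives. Its adjusted p in limma was 0.433 without the filter on low values, 0.0792 without the trend, 0.0713 without JAKi-treated mouse 1 (-1.45) and 0.0744 without JAKi-treated mouse 3 (-1.52). *Vcan* (-1.33) and *Hp* (-0.84) were also lower with no overlap, and so was *Fn1* (-0.65), which differed by -0.41 without vehicle-treated mouse 3 and lost its call without JAKi-treated mouse 1, at -0.50. *Cd93* was the higher gene, by 0.88 with no overlap. The classical list, in which *Chil3* or *Ly6c2* had the largest share in each mouse, summed to 21222, 19491 and 20749 FPKM in vehicle-treated mice and to 14137, 11931 and 14501 in JAKi-treated mice. Whether differences between the non-classical and the classical list exceed those between other lists was not tested.

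**Figure D4:**
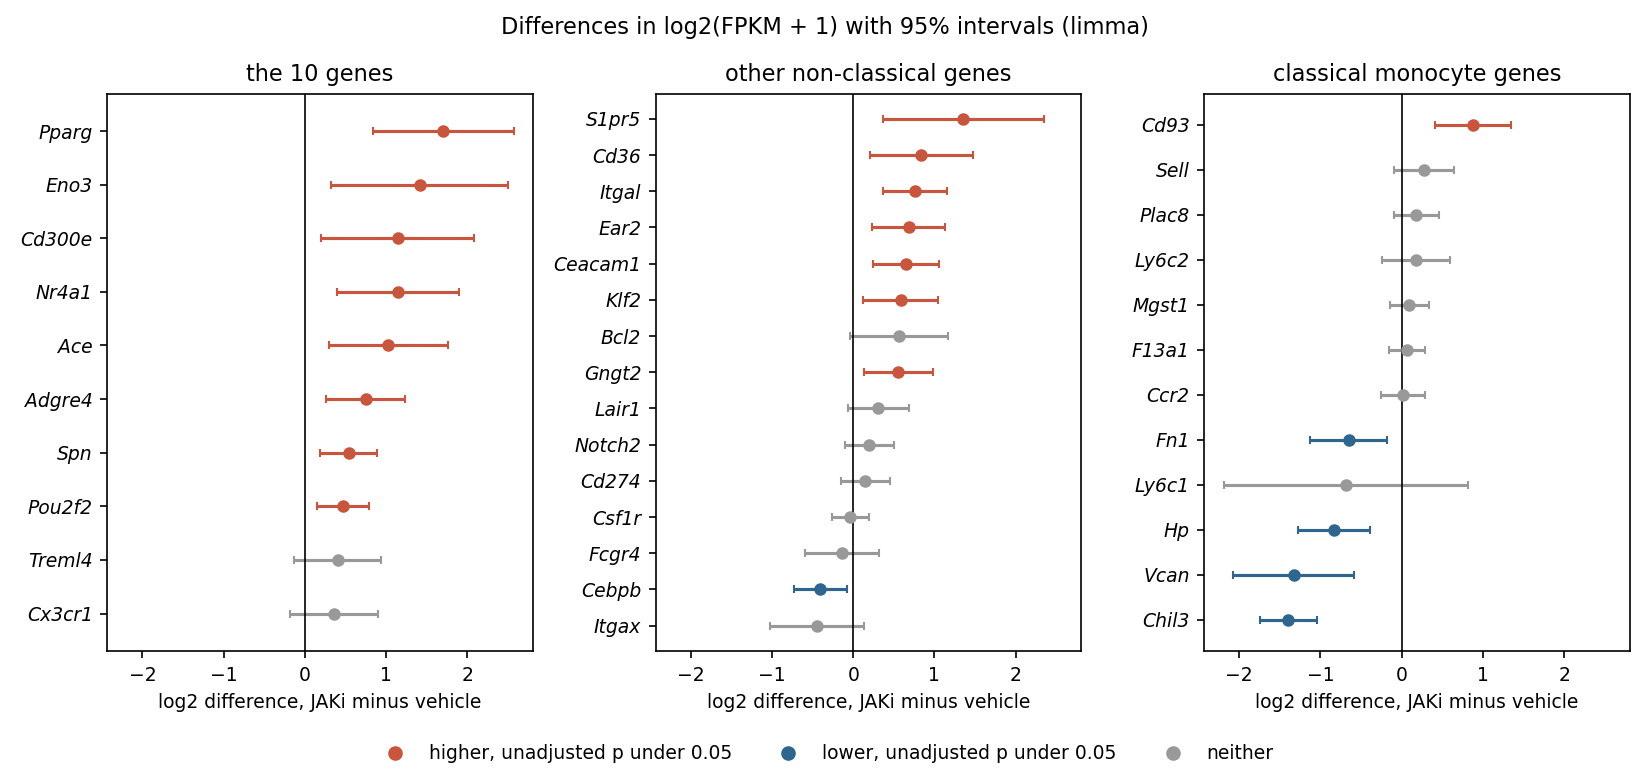
Differences in log2(FPKM + 1), JAKi minus vehicle, with 95% intervals from limma, for the 10 genes, 15 other non-classical monocyte genes and 12 classical monocyte genes, each panel sorted by its estimate. Points in red are higher (8, 7 and 1 genes) and points in blue lower (0, 1 and 4 genes) at an unadjusted p under 0.05.

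Some genes known from other cell types were higher or lower alongside the 10 genes. Of 11 tested genes of the neutrophil list, 3 were higher and 2 were lower, and 5 were higher without JAKi-treated mouse 2. Vehicle-treated mouse 3 was the lowest of the 6 mice for 5 of these 11 genes and the highest for 4. Among all 11301 tested genes it was the lowest for 2803 and the highest for 2864. It was the lowest for *Elane* and *Mpo*, genes of granulocyte progenitors, with *Elane* at 2316, 2452 and 1003 FPKM in vehicle-treated mice and 4023, 3903 and 3713 in JAKi-treated mice. *Elane* differed by 1.12 and *Mpo* by 0.93 with no overlap, and by 0.70 and 0.53 without vehicle-treated mouse 3. *Camp*, which encodes an antimicrobial peptide, was likewise higher with no overlap, by 1.64. The lower genes were *Mmp8*, a collagenase gene, and the chemokine receptor gene *Cxcr2*, and for both vehicle-treated mouse 3 was the highest. *Mmp8* had 189, 199.97 and 356 FPKM in vehicle-treated mice and 110.5, 94.9 and 139 in JAKi-treated mice, a difference of -1.06 with no overlap, and *Cxcr2* differed by -0.80 with no overlap. *S100a8* had the highest mean of the neutrophil list, which summed to 19935, 17208 and 23283 FPKM in vehicle-treated mice and to 24502, 17314 and 21614 in JAKi-treated mice. Genes of tissue macrophages were lower or passed in neither direction, with 5 of 11 tested lower, 0 higher and a median difference of -0.70. Without vehicle-treated mouse 3, 7 were lower and 1 was higher with a median of -0.999, without JAKi-treated mouse 2 also 1 was higher, and without vehicle-treated mouse 2 the median was -0.34. *C1qb*, which had the highest mean of the list and encodes a subunit of complement C1q, had 163, 176 and 93.3 in vehicle-treated mice and 61.8, 31.1 and 32.4 in JAKi-treated mice, a difference of -1.78 with no overlap. The other C1q subunit genes *C1qa* (-1.66) and *C1qc* (-1.51) were lower with overlapping groups. The receptor genes *Marco* (-1.91) and *Mertk* (-1.57, and -0.999 without vehicle-treated mouse 3) were lower with no overlap. The macrophage list summed to 464, 447 and 288 FPKM in vehicle-treated mice and to 245, 143 and 169 in JAKi-treated mice. Whether neutrophils or tissue macrophages were among the sorted cells, and any part of them in the values of the 10 genes, was not tested.

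Genes with the most similar profile were sought for *Cx3cr1* and for each of the 8 genes past an unadjusted p under 0.05, as the smallest root mean square difference of centred log2(FPKM + 1) over the 6 libraries among 6033 genes (6034 for *Pou2f2*, whose own mean was lower) whose mean reached 10 FPKM. The nearest to *Cx3cr1* were *Itgb7* (0.068 on the log2 scale), *Ticam2* (0.069) and *Ube2l6* (0.069), each with its lowest value in vehicle-treated mouse 3. *Itgb7*, an integrin beta chain, had an FPKM of 163, 178 and 94.2 in vehicle-treated mice and of 184, 173 and 194 in JAKi-treated mice. Among the 3 nearest genes, members of the 10 were found only for *Ace*, *Nr4a1* and *Eno3*. *Cx3cr1*, *Spn*, *Pou2f2*, *Cd300e*, *Adgre4* and *Pparg* had none. *Nr4a1* was the second nearest gene to *Ace* (0.18), after the adhesion molecule gene *Pecam1* (0.17) and before the thrombomodulin gene *Thbd* (0.18). *Ace* in turn was the nearest gene to *Nr4a1*, followed by *Lilra5* (0.23) and *Pecam1* (0.25). *Eno3* was nearest to *S1pr5* (0.20), *Cnn3* (0.20) and *Cd300e* (0.21). *Cd300e* was nearest to *S1pr5* (0.15), its family member *Cd300ld* (0.19) and *Thbd* (0.19). For *Adgre4* the nearest genes were *Ear2* (0.073), which is on the list of other non-classical genes, *Hfe* (0.086) and *Rbpms* (0.11). *Spn* was nearest to *Cst3* (0.039), which encodes the protease inhibitor cystatin C, followed by *Rasgrp2* (0.068) and *Dtl* (0.076). *Pou2f2* was nearest to *Abi3* (0.048), *Oaz1* (0.050) and *Dap* (0.052). *Pparg* had no gene as close, with *1700026L06Rik* (0.35), *Clec7a* (0.38) and *Bex6* (0.40) as its nearest. All of these genes share the same 6 libraries, and likeness over 6 values is a description.

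The annotated exons of the 10 genes shared few bases with other genes, at most 5.58% in *Ace*, whose antisense partner *Gm11651* averaged 0 FPKM with vehicle and 0.015 with JAKi. Without the filter on low values, the calls of *Ace*, *Nr4a1*, *Eno3* and *Cd300e* in limma were lost, which left 4 of the 10 genes higher at an unadjusted p under 0.05. The share of all genes called in that fit is not given here, so these 4 cannot be compared with it.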

How the data were processed

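For each of the 3 JAKi-treated and 3 vehicle-treated mice, a table of FPKM deposited by the authors was used. Each lists 24346 symbols, 95.7% of them matched to reference gene names, and 8100 are at 0 in all 6 tables. The submitters' processing notes name TopHat2 2.0.13, Bowtie2 2.2.3, SAMtools 0.1.19, Cufflinks 2.2.1 and build mm10, and the methods name iDEP. The library kit is TruSeq Stranded mRNA in the methods and SMART-Seq HT with Nextera in the labels, so strand use is uncertain and antisense genes cannot be told apart with certainty. Reads were single-end, of 75 bases. Depth is unknown; low values put relative depths within 1.17-fold over 15 pairs of libraries, a rough estimate.

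From the deposited FPKM, log2(FPKM + 1) of the 11301 genes that reached 1 FPKM in 1 or more mice was compared by limma 3.58.1 under R 4.3.3, with a trended empirical Bayes step, adjustment by Benjamini-Hochberg over all 11301 and no replicate block. Differences on this scale understate those of genes with low values. For single genes an exact permutation test, 2-sided, was added. The 10 genes and the 20 gene lists were chosen with earlier results of these data known. Named were the 10 genes, all genes of the other non-classical and the classical list as needed, from each list the gene with the highest mean FPKM, up to 5 with the smallest unadjusted p under 0.05 and markers at 0 throughout, and the 3 nearest profiles; other names were chosen after their values were seen (*Nr4a2*, *Nr4a3*, *Adgre1*, *Cfd*, *Junb*, *Mmp9* and *Gm11651*). Promoters of members with a STAT element were to be shown, which gave *Cd300e*. Alternatives were a pseudocount of 0.1, no filter, a filter of 1 FPKM in 3 or more mice, quantile normalization, median ratio scaling, no trend, library weights, the replicate block, and leaving out single mice. The model was first tested on simulated data. Positions are from GENCODE M21 on GRCm38, promoter sequences from RefSeq (GRCm38.p6), matched for all 10 genes. Also used were matplotlib 3.10.9, SciPy 1.17.1, NumPy 2.4.6, pandas 2.3.3 and Python 3.11.15.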

Additional observations from a re-analysis of the deposited data

How the results depend on the processing

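Under 14 alternatives, 0 values of the 10 genes changed direction. Of 60 values with 1 mouse left out, 55 stayed on the same side of an unadjusted p of 0.05 in limma, and so did 75 of the 80 under other alternatives. *Ace*, *Nr4a1*, *Eno3* and *Cd300e* lost their call without the filter on low values, *Eno3* and *Cd300e* also without JAKi-treated mouse 1 or 2, and *Treml4* gained one without vehicle-treated mouse 1 and with the replicate block. The number of the 10 genes past an unadjusted p of 0.05 was 4 without the filter and 6 to 9 with 1 mouse left out, and that of higher genes among the 15 other non-classical genes was 3 and 6 to 9. Shares of all genes at an unadjusted p under 0.05 are given only for the main fit and the fit without vehicle-treated mouse 3. Counts of list genes in the other fits are therefore not set against a share. The median difference of the 10 genes was 0.65 with weights for each library, 0.92 with a pseudocount of 0.1 and 0.53 to 1.21 with 1 mouse left out. The all-gene count of 15 at an adjusted p under 0.05 was 4 without the filter, 34 with a filter in 3 mice, 2 without the trend, 63 with weights for each library, 67 with the replicate block and 3 to 95 with 1 mouse left out; the cause was not tested. Mice with the same number had correlations of deviations from group means of 0.0158, 0.0542 and -0.00016 over 11301 genes. With 3 mice per group these values cannot show whether the mice were handled in pairs, and the sources used here name no pairing. With the replicate block 9 of the 10 genes passed. With that block the all-gene count at an adjusted p under 0.05 also rose, from 15 to 67. No share of all genes at an unadjusted p is given here for the block. Of 55 other list genes past an unadjusted p of 0.05, 43 kept their call whichever mouse was left out, and 18 lost it without the filter, among them 3 of the CD300 family beside *Cd300e*, and *Klf2*, *Klf4*, *Cebpb*, *S1pr5*, *Gngt2*, *Cd36*, *Acp5*, *Mpo* and *Hba-a1*. Unknown read depth limits statements on genes with low values.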

Other observations

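The summed erythroid list was highest in JAKi-treated mouse 3. *Hba-a1*, a globin gene, had the highest mean of the list through that mouse alone, as *Klf1*, an erythroid transcription factor gene, was above it in the other 5 mice. *Hba-a1* had an FPKM of 0.064, 0 and 0.057 in vehicle-treated mice and of 2.64, 1.96 and 38.6 in JAKi-treated mice. All JAKi-treated mice lay above all vehicle-treated mice, a difference of 2.86 on the log2 scale and of 1.66 without JAKi-treated mouse 3. *Klf1* had 2.24, 2.52 and 0.501 in vehicle-treated mice and 4.82, 3.93 and 6.98 in JAKi-treated mice, a difference of 1.25 with no overlap. Of 5 tested erythroid genes 2 were higher and 0 were lower at an unadjusted p under 0.05 in limma, and the list summed to 3.45, 3.52 and 0.749 FPKM in vehicle-treated mice and to 8.14, 6.68 and 51.4 in JAKi-treated mice.

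In the list of T and NK cell genes, 1 of 8 tested genes was higher and 2 were lower. *Nkg7*, a cytotoxic granule membrane gene and the most abundant of the list, had an FPKM of 328, 363 and 167 in vehicle-treated mice and of 557, 499 and 489 in JAKi-treated mice, a difference of 0.92 with no overlap and of 0.57 without vehicle-treated mouse 3. *Prf1*, the perforin gene, was lower by -0.98 with no overlap at values of at most 1.87. *Gzma* had 10.9, 8.01 and 33.1 in vehicle-treated mice and 10.8, 3.01 and 0 in JAKi-treated mice, a difference of -2.09. The *Gzma* call was lost without vehicle-treated mouse 3 (-1.52), JAKi-treated mouse 2 (-2.16) or JAKi-treated mouse 3 (-1.16). The list summed to 344, 375 and 206 FPKM in vehicle-treated mice and to 574, 504 and 491 in JAKi-treated mice. *Nkg7* made up most of each sum, and genes of the list other than *Nkg7* and *Gzma* reached at most 1.87 FPKM. Of 5 tested dendritic cell genes, *Cd209a* was higher (1.16) and 0 were lower, and that call was lost without vehicle-treated mouse 3 (0.72), JAKi-treated mouse 2 (1.25) or JAKi-treated mouse 3 (0.70), while 1 gene was lower without vehicle-treated mouse 1 or 3. *Bst2* was the most abundant dendritic cell gene, and the list summed to 94.7, 103 and 69.2 FPKM in vehicle-treated mice and to 82.3, 95.9 and 96.8 in JAKi-treated mice. Of 8 osteoblast and stromal genes, 7 were below an FPKM of 1 in every mouse, *Sp7* was listed at 0 throughout, and *Runx2*, the most abundant, differed by 0.14 with overlapping groups and by -0.17 without vehicle-treated mouse 3 and 0.29 without vehicle-treated mouse 1 or 2. That list summed to 7.28, 6.89 and 3.60 FPKM in vehicle-treated mice and to 6.44, 6.49 and 5.999 in JAKi-treated mice.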
